A study of Lathyrus oleraceus with 9 samples.

Results

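A set of 52 probes on a pea oligonucleotide array had an aged over non-aged ratio that stood away from 0 after 8 d of seed ageing and nearer to 0 after 15 d. They were chosen by their measured values: a mean log2 ratio over the 3 arrays of at least 0.5 in size at 8 d, and a mean at 15 d that was smaller in size by at least 0.25. Both thresholds were met by 65 of the 5246 probes on the array. Left out were 7 probes whose product the study lists as hypothetical and 6 more that were excluded by name, which leaves 52. The ratios of 8 d and of 15 d are therefore given as a description, with no test. The 3 arrays of 12 d took no part in the thresholds, and the ratio at 12 d was tested. They did count towards the study's list of regulated probes, by which the 7 hypothetical probes were left out.

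Whole seeds of Pisum sativum cv Alaska Early were brought to a moisture content of 12% at 60% relative humidity and then aged at 50°C in sealed bottles for 8, 12 or 15 d. The reference was non-aged seeds (0 d) of the same moisture content. Each replicate was taken from 20 seeds, and the paper calls the 3 replicates of each ageing time biological. It does not say whether they were grown and harvested separately. On each of the 9 arrays, RNA from aged seeds and RNA from non-aged seeds were labelled with different dyes and hybridised together, with the dyes exchanged on replicate 2. Pooling 20 whole seeds mixes embryo axis, cotyledons and seed coat, and it mixes seeds that aged to different degrees. Fewer cells of a type and less RNA per cell cannot be told apart in such a ratio. A ratio also holds no level, so that the labelled tissue could not be checked against markers, and a change in aged seeds cannot be told apart from one in the non-aged RNA of that array. Whether the same non-aged RNA served the 3 ageing times is not stated in the sources used here.

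Dry seeds hold a store of messenger RNA that was made during development, and protein synthesis after water uptake starts from it. Translation factors, cell wall hydrolases and membrane-binding proteins are among the products that seeds use when they germinate. In seeds stored warm and moist, proteins, membranes and nucleic acids deteriorate before germination is lost. The paper describes a gradual loss of RNA integrity in these seeds during ageing, already clear at the earliest time examined. Ratios were normalized within each array, so that every fold value here is relative to the other RNA of the same samples. Such a value gives no amount of transcript per seed. How far RNA degradation contributes to the ratios, or to their change between ageing times, was not tested.

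Of the 52 members, 37 had a ratio above 0 at 8 d and 15 had a ratio below 0. Those above 0 had a median log2 ratio of 0.70 at 8 d, 0.19 at 12 d and 0.16 at 15 d. Those below 0 had a median of −0.73 at 8 d, −0.50 at 12 d and −0.44 at 15 d. Over all 5246 probes, the medians were 0.01, 0.01 and 0.02 at 8, 12 and 15 d. At 15 d, 21 of the 37 members above 0 at 8 d lay within 0.2 of 0, while 0 of the 15 below 0 did so. The 15 d means of these 15 still lay between −1.37 and −0.23. The word transient is thus loose for the members down at 8 d, which stayed below non-aged seeds at all 3 times. It is loose for some members above 0 at 8 d too, whose 15 d means reached up to 0.76. Over all probes, the median size of the 15 d mean was 0.3. The 15 d means took part in the choice, so that the contrast between the 2 directions is a description only.

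**Figure D1:**
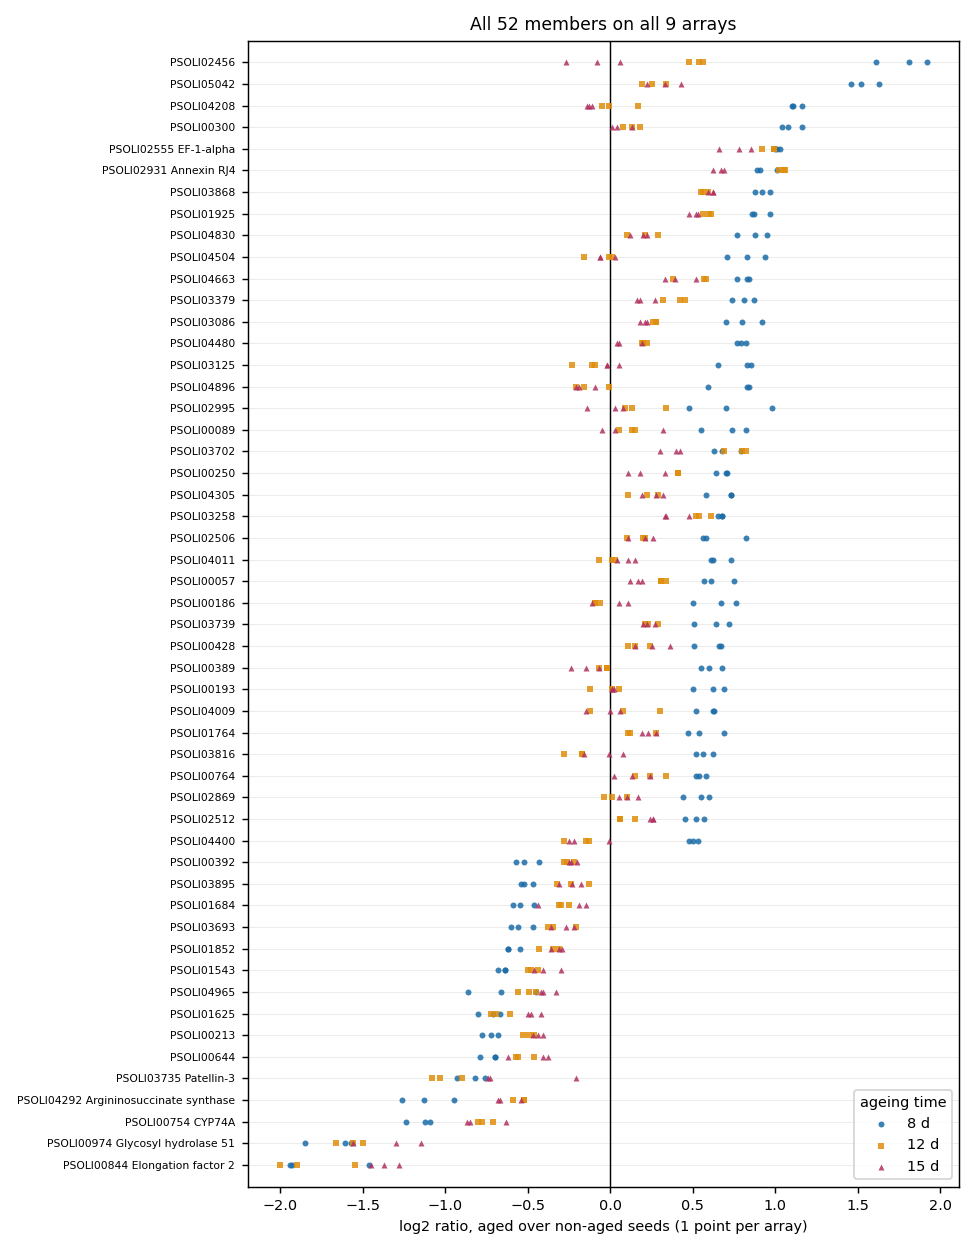
Each row is 1 of the 52 members, ordered by the mean at 8 d, and each point is 1 array (circles 8 d, squares 12 d, triangles 15 d). The x axis is the log2 ratio between aged and non-aged seeds. Of the 37 members up at 8 d, 19 have a mean within 0.2 of 0 at 12 d and 21 at 15 d. All 15 members down at 8 d stay below 0.

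At 12 d, the ratio of 39 of the 52 members (75.0%) was past the test in the direction it had at 8 d (limma, two-sided, Benjamini-Hochberg adjusted p under 0.05 over all 5246 probes). Over the whole array, 37.1% of probes were past this test upwards and 34.1% downwards. All 15 members down at 8 d were lower in aged seeds at 12 d, with adjusted p between 2.3e-12 and 0.00012 in limma. Of the 37 members up at 8 d, 24 (64.9%) were higher in aged seeds at 12 d, 9 did not pass the test and 4 were lower. With the 65 probes that met both thresholds left out, 1442 probes had a mean of at least 0.5 in size at 8 d, and all 1442 were past the test at 12 d in the direction of 8 d. The medians of the 745 of these that were up were 0.73, 0.78 and 0.91 at 8, 12 and 15 d, and those of the 697 that were down were −0.79, −0.86 and −1.03. These probes are what remained once those that faded had been taken out by their 8 d and 15 d values, so that the contrast with the members is given as a description only.

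**Figure D2:**
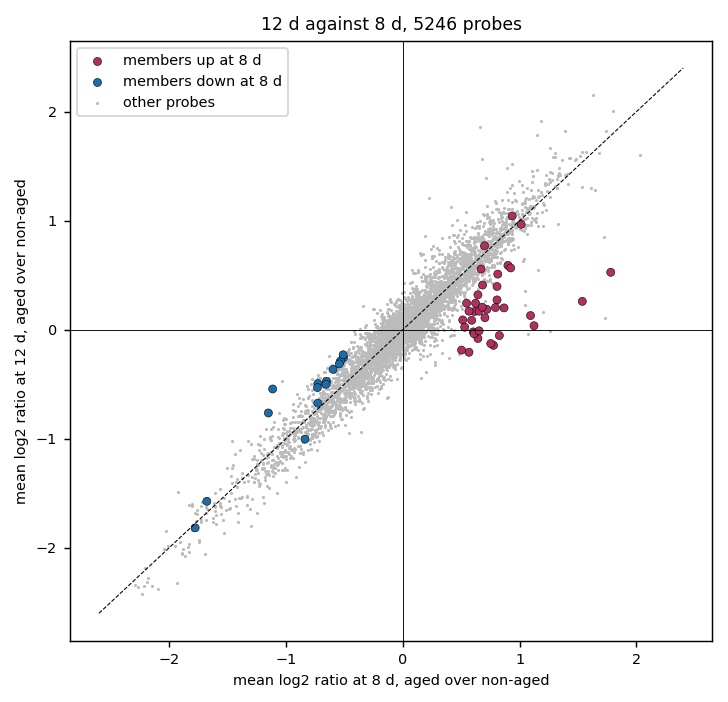
Mean log2 ratio, aged over non-aged, at 8 d (x axis) against 12 d (y axis), 1 point per probe, with the 37 members up at 8 d in red, the 15 down in blue and the other probes in grey; the dashed line marks equal values. Most members up at 8 d lie well below the line, while 4 members lie on its outer side, farther from 0 at 12 d than at 8 d.

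A 2-fold difference, which is 1 on the log2 scale, was reached by 9 members at 8 d (5 up and 4 down), by 4 at 12 d and by 2 at 15 d. On the whole array, 2.52% of probes were called up and 4.48% down by this size with the same limma test at 8 d, values that the choice of members used. At 12 d, 1 member was called up and 3 were called down, against 3.13% and 4.77% of all probes. The 4 members past the test and this size at 12 d were an elongation factor 2, a glycosyl hydrolase of family 51, Patellin-3 and an annexin-like protein. The 2 that still exceeded it at 15 d were the elongation factor 2 and the glycosyl hydrolase.

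Replicate spread within an ageing time was small beside most of these ratios, and less so beside the drops, whose median was 0.41. The largest SD of a member at 15 d, 0.30 for Patellin-3, exceeded its drop of 0.28. For the members, the SD over the 3 arrays had medians of 0.069, 0.061 and 0.069 at 8, 12 and 15 d, against 0.062, 0.066 and 0.062 for all probes. Array medians lay between 0.01 and 0.02. The spread of the ratios over all probes, as the scaled median absolute deviation, was 0.386 on the arrays of 8 d, 0.40 on those of 12 d and 0.445 to 0.460 on those of 15 d. With every array scaled to one spread, 115 probes met the thresholds, all 52 members among them. A term for the exchanged dyes had an adjusted p under 0.05 for 0 members and for 0 of all probes in limma. It had an unadjusted p under 0.05 for 2 members, against 5.03% of all probes. Since the dyes were exchanged only on replicate 2, dye and replicate 2 cannot be told apart by this term. Without replicate 2, all arrays have the same dye order.

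Products are known for 7 of the 52 members, from the study's list of regulated probes. The other 45 are not on that list and have no product name in the sources used here. By identifier, 0 of the members matched the reference annotation. Probe sequences were not analysed here. Of the 7 with a name, 2 were up at 8 d and 5 were down, and all 7 were past the test at 12 d. The study's list holds probes with at least a 2-fold change at any of the 3 ageing times, 12 d included. These passes are thus not independent evidence. Patellin-3 and annexin-like protein RJ4 reached a 2-fold mean only at 12 d, so that their names rest on that time. Without replicate 3, 3 of the 7 no longer met the thresholds of the choice: cytochrome P450 74A, elongation factor 1-alpha and Patellin-3.

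Elongation factors carry the ribosome through each round of peptide synthesis, and 2 of the members are named as such. Elongation factor 2 moves the ribosome by 1 codon after each peptide bond. The probe with the product name putative elongation factor 2 (PSOLI00844) had log2 ratios of −1.94, −1.46 and −1.93 on the 3 arrays of 8 d. It had −1.55, −2.00 and −1.90 at 12 d, and −1.45, −1.37 and −1.28 at 15 d. The arrays of 8 d and 12 d overlapped, and those of 15 d were all nearer to 0, the closest pair being −1.46 at 8 d and −1.45 at 15 d. The means were −1.78 ± 0.27, −1.82 ± 0.24 and −1.37 ± 0.09 at 8, 12 and 15 d (SD, n = 3 each), so that the transcript was 3.43-, 3.52- and 2.58-fold lower in aged seeds. At 12 d the adjusted p was 8.9e-12 in limma.

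Elongation factor 1-alpha delivers charged transfer RNA to the ribosome. Its probe (PSOLI02555) was up, with 1.01, 1.00 and 1.03 at 8 d, 0.92, 0.99 and 0.99 at 12 d, and 0.78, 0.85 and 0.66 at 15 d. The values of 8 d all lay above those of 12 d, by as little as 0.01, and those of 12 d all lay above those of 15 d. The transcript was 2.02-, 1.95- and 1.70-fold higher in aged seeds at 8, 12 and 15 d (adjusted p = 2.2e-12 at 12 d in limma). This member sat on the edge of the choice, with a mean of 1.01 at 8 d and of 0.76 at 15 d, a drop of exactly 0.25. Without replicate 3 the drop was 0.19.

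Both families held other probes that are no members. In a list of 13 elongation factor probes, taken from the study's product names and so made up of probes called on these arrays, 5 were higher and 8 lower in aged seeds at 12 d by the limma test. The median log2 ratio of the 13 at 12 d was −1.22, against 0.01 for all probes. Since this list and the other pathway lists hold only probes that the study called on these same arrays, their directions are not independent evidence. Of the 11 that are no members, 10 were farther from 0 at 15 d than at 8 d. Another elongation factor 2 probe (PSOLI04762) had means of −2.22, −2.35 and −2.73 at 8, 12 and 15 d, and one for elongation factor 1-alpha (PSOLI01474) had −2.09, −2.38 and −3.21. An elongation factor 2 probe with the opposite direction (PSOLI04147) had 1.26, 1.35 and 1.41. Only the organellar-type factor EF-Tu (PSOLI02197) among these 11 was nearer to 0 at 15 d, with −1.21, −1.27 and −1.18. Within 1 product name, then, probes moved in both directions on these arrays. Members of such families share sequence, and which copy each probe detects was not tested.

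Cytochrome P450 74A is allene oxide synthase, the enzyme that commits fatty acid hydroperoxides to the synthesis of jasmonates. Its probe (PSOLI00754) had log2 ratios of −1.09, −1.12 and −1.24 at 8 d. At 12 d it had −0.71, −0.80 and −0.78, and at 15 d −0.85, −0.87 and −0.63. Every array of 8 d lay below every array of 12 d and of 15 d, and the last 2 times overlapped. The transcript was 2.22-fold lower in aged seeds at 8 d, 1.70-fold lower at 12 d (adjusted p = 3.4e-10 in limma) and 1.72-fold lower at 15 d. Without replicate 3, whose 15 d value was the nearest to 0, the drop was 0.245, just under the threshold.

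The other oxylipin probes of the study's list are no members. All 3 were farther from 0 at 15 d than at 8 d, the lipoxygenase by little. Lipoxygenase makes the hydroperoxides that allene oxide synthase uses, and its probe (PSOLI00996) had means of −0.80, −1.01 and −0.82 at 8, 12 and 15 d. Of the reductases of 12-oxophytodienoate, which act after it, the probe named OPR1 (PSOLI04604) had 1.12, 1.41 and 1.79, and the one named reductase 2 (PSOLI04233) had −1.08, −1.09 and −1.41. In Arabidopsis, copies of this reductase differ in whether they serve jasmonate synthesis. At 12 d, 1 of the 4 probes of this list was higher and 3 were lower in aged seeds by the limma test, with a median log2 ratio of −0.89, against 0.01 for all probes.

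Argininosuccinate synthase joins citrulline to aspartate in the synthesis of arginine, the amino acid in which many legume seeds store much of their nitrogen. The 3 arrays gave −0.95, −1.26 and −1.13 at 8 d for its probe (PSOLI04292). They gave −0.52, −0.52 and −0.59 at 12 d, and −0.68, −0.67 and −0.54 at 15 d. The 8 d values stood apart from both later times, which overlapped. Mean ratios were −1.11 ± 0.16, −0.54 ± 0.04 and −0.63 ± 0.08 (SD, n = 3 each), or 2.16-, 1.46- and 1.55-fold lower in aged seeds, with an adjusted p of 4.9e-08 at 12 d in limma. It met the thresholds without any 1 replicate, with a drop of at least 0.43.

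Of the 4 other nitrogen and polyamine enzymes listed, 3 were farther from 0 at 15 d than at 8 d. Acetylornithine aminotransferase, an earlier step of arginine synthesis (PSOLI04575), had means of −0.79, −0.85 and −1.06. Glutamine synthetase, which assimilates ammonium (PSOLI00518), had −1.25, −1.68 and −1.90. Glutamate dehydrogenase (PSOLI03649) had 0.96, 0.98 and 1.14, and spermidine synthase (PSOLI02518), the exception, had −1.77, −1.75 and −1.71. At 12 d, 1 of the 5 probes was higher and 4 were lower in aged seeds by the limma test, with a median log2 ratio of −0.85, against 0.01 for all probes.

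Glycosyl hydrolases of family 51 include plant arabinofuranosidases, which cut arabinose side chains from cell wall polysaccharides. The log2 ratio of this probe (PSOLI00974) was −1.57, −1.61 and −1.85 at 8 d, −1.50, −1.66 and −1.56 at 12 d, and −1.15, −1.30 and −1.56 at 15 d. Neighbouring times overlapped or touched, and replicate 3 had −1.56 at both 12 d and 15 d. The transcript was 3.20-, 2.98- and 2.53-fold lower in aged seeds at 8, 12 and 15 d (adjusted p = 2.3e-12 at 12 d in limma). The 4 other cell wall probes listed, for an expansin-like protein, 2 pectin-deacetylating enzymes and a family 5 hydrolase, were all farther from 0 at 15 d than at 8 d. The expansin-like probe (PSOLI03805) had means of −1.80, −1.61 and −2.11, and the family 5 probe (PSOLI02418) had 0.66, 0.72 and 1.00. By the limma test at 12 d, 1 of the 5 was higher and 4 were lower in aged seeds, with a median of −1.55, against 0.01 for all probes.

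Patellins are lipid-binding proteins of the SEC14 type that act at membranes, in Arabidopsis at the forming cell plate. Patellin-3 (PSOLI03735) had −0.93, −0.82 and −0.76 at 8 d, −0.90, −1.08 and −1.03 at 12 d, and −0.73, −0.74 and −0.21 at 15 d. The lowest mean was thus at 12 d, at −1.0 ± 0.09, against −0.84 ± 0.09 at 8 d and −0.56 ± 0.30 at 15 d (SD, n = 3 each). The adjusted p at 12 d was 4.3e-09 in limma. As its name rests on 12 d, neither this p nor the low at 12 d is independent evidence. Its place among the members rests on replicate 3 of 15 d, since without replicate 3 the means were −0.88 at 8 d and −0.74 at 15 d, a drop of 0.14. The 2 probes named Patellin-5 were both farther from 0 at 15 d than at 8 d and had opposite signs, with −0.92, −0.92 and −1.20 for PSOLI01330 and 1.80, 2.00 and 2.34 for PSOLI02696. At 12 d, 1 of the 3 patellin probes was higher and 2 were lower in aged seeds by the limma test, with a median of −0.92, against 0.01 for all probes.

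Annexins bind membrane phospholipids in the presence of calcium. The probe for annexin-like protein RJ4 (PSOLI02931) had 0.89, 0.91 and 1.01 at 8 d. It had 1.06, 1.05 and 1.02 at 12 d, and 0.67, 0.62 and 0.69 at 15 d. The 3 times did not overlap, and 12 d was the highest. As the name rests on 12 d, neither this order nor the test at 12 d is independent evidence. The transcript was 1.91-fold higher in aged seeds at 8 d, 2.06-fold at 12 d (adjusted p = 3.8e-13 in limma) and 1.58-fold at 15 d.

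**Figure D3:**
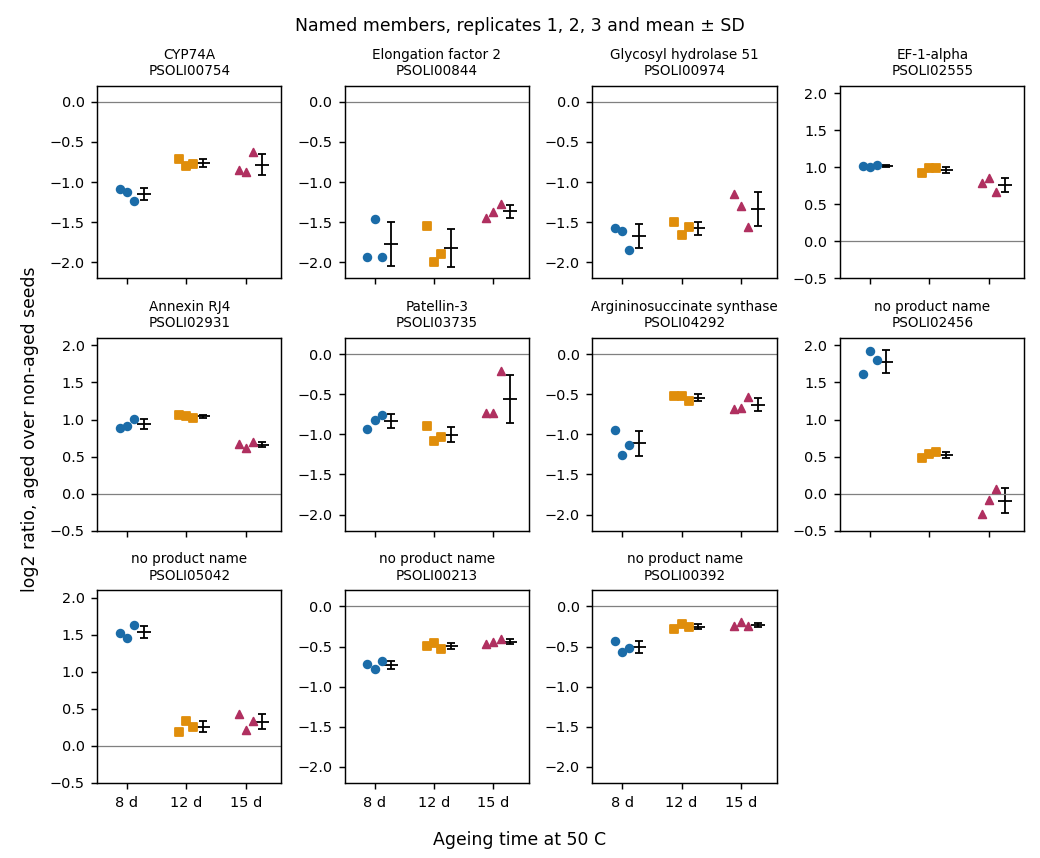
Log2 ratios, aged over non-aged (y axis), at 8, 12 and 15 d (x axis) for the 7 members with a product name and 4 without, with replicates 1, 2 and 3 from left to right and the mean ± SD beside them. Patellin-3, annexin-like protein RJ4 and the elongation factor 2 are farthest from 0 at 12 d, whereas argininosuccinate synthase and cytochrome P450 74A are nearer to 0 at 12 d than at 8 d.

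Among the members without a product name, 35 were up at 8 d and 10 were down. The largest ratio and the largest drop of all 52 belonged to PSOLI02456. It had 1.61, 1.92 and 1.81 at 8 d, 0.48, 0.54 and 0.56 at 12 d, and −0.27, −0.08 and 0.06 at 15 d. No array of any time overlapped with those of another, and the transcript was 3.43-fold higher in aged seeds at 8 d and 1.44-fold higher at 12 d (adjusted p = 5.3e-07 in limma), with a mean of −0.10 ± 0.17 at 15 d (SD, n = 3). The drop was 1.68, against a median drop of 0.41 over the members.

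The next largest drop was that of PSOLI05042. Its ratios were 1.52, 1.46 and 1.63 at 8 d, 0.19, 0.34 and 0.25 at 12 d, and 0.43, 0.22 and 0.33 at 15 d. All of its fading lay between 8 d and 12 d, and the last 2 times overlapped. It was 2.90-fold higher in aged seeds at 8 d, 1.20-fold at 12 d (adjusted p = 0.0001 in limma) and 1.25-fold at 15 d.

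The other 2 members without a name that exceeded 1 at 8 d are named here after their values were seen. All 4 members without a name that exceeded 1 at 8 d are absent from the study's list of regulated probes, despite their size. The study also kept only values that were reproducible over replicates. Whether these probes missed that filter was not tested. PSOLI04208 had 1.11, 1.10 and 1.16 at 8 d, −0.01, 0.17 and −0.05 at 12 d, and −0.13, −0.11 and −0.14 at 15 d. Its mean of 0.04 ± 0.12 at 12 d (SD, n = 3) did not pass the test (adjusted p = 0.46 in limma). PSOLI00300 had 1.08, 1.04 and 1.16 at 8 d, 0.08, 0.13 and 0.18 at 12 d (adjusted p = 0.0078 in limma), and 0.01, 0.13 and 0.04 at 15 d. In both, every array of 8 d was far above every array of the later times, 2.18-fold higher in aged seeds on average for PSOLI04208 and 2.13-fold for PSOLI00300.

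Of the 10 members without a name that were down at 8 d, the largest drop was that of PSOLI00213, with −0.72, −0.78 and −0.68 at 8 d. It had −0.49, −0.46 and −0.53 at 12 d (adjusted p = 2.9e-09 in limma) and −0.47, −0.44 and −0.41 at 15 d. PSOLI00392 had −0.43, −0.57 and −0.52 at 8 d, −0.28, −0.22 and −0.26 at 12 d (adjusted p = 1.4e-05 in limma), and −0.24, −0.20 and −0.25 at 15 d. PSOLI01852, whose drop equalled that of PSOLI00392, had −0.55, −0.62 and −0.62 at 8 d, −0.35, −0.31 and −0.43 at 12 d (adjusted p = 2e-07 in limma), and −0.36, −0.29 and −0.31 at 15 d. In all 3 of these probes, the 8 d arrays stood apart and the later times overlapped. The medians of the 10 were −0.63, −0.42 and −0.35 at 8, 12 and 15 d, and none was farther below 0 than −0.73 at 8 d.

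The part of the change between 8 d and 15 d that lay before 12 d is given as a description. By 12 d, the members had covered a median of 88.4% of their change between 8 d and 15 d, 96.0% for those up at 8 d and 81.4% for those down. In 45 of the 52 members (35 up and 10 down), all 3 arrays of 8 d were farther from 0 than all 3 of 12 d, which held for 16.1% of all probes. In 16 members, all 3 arrays of 12 d were farther from 0 than all 3 of 15 d, which held for 8.43% of all probes. The arrays of 8 d and of 15 d took part in the choice, so that nothing is read from these shares or counts.

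A smaller group had a lower share of its change by 12 d. In 8 members, under 50% of the change had taken place by 12 d, a line drawn after the values were seen, and 5 of these 8 are among the 7 members with a product name: Patellin-3, annexin-like protein RJ4, the elongation factor 2, elongation factor 1-alpha and the glycosyl hydrolase of family 51. Of the other 44 members, 42 have no product name, and the 2 with one are cytochrome P450 74A and argininosuccinate synthase. The product names come from a list of probes that the study called on these arrays, so that having a name is not independent of the size of the ratio at 12 d and 15 d.

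The 3 members of the smaller group without a name were PSOLI03702, PSOLI03258 and PSOLI01625. PSOLI03702 had 0.63, 0.79 and 0.68 at 8 d, 0.69, 0.80 and 0.82 at 12 d (adjusted p = 7.1e-11 in limma), and 0.30, 0.42 and 0.40 at 15 d. PSOLI03258 had means of 0.67, 0.56 and 0.38 at 8, 12 and 15 d, and PSOLI01625 had −0.73, −0.67 and −0.47. In all 3, the 15 d arrays lay apart from those of 12 d.

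**Figure D4:**
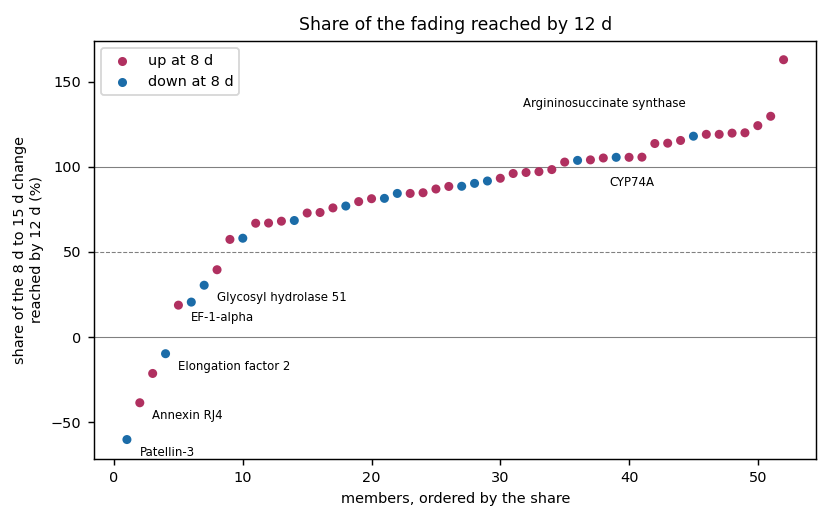
Share of the change between 8 d and 15 d that had taken place by 12 d, in percent (y axis), for the 52 members in order of the share (x axis), in red for members up at 8 d and in blue for those down; a value below 0 means a mean farther from 0 at 12 d than at 8 d. Labelled are the 7 members with a product name, 5 of which are among the 8 below the dashed line at 50%, and most other members lie between it and values somewhat above 100%.

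The members up at 8 d included 6 whose 3 arrays of 12 d were all below 0, and 2.69% of all probes had 8 d and 12 d arrays all of opposite sign. These 6 were chosen after their values were seen. PSOLI03816 had 0.62, 0.56 and 0.52 at 8 d, −0.28, −0.17 and −0.17 at 12 d, and −0.01, −0.16 and 0.08 at 15 d. It was lower in aged seeds at 12 d, at −0.21 ± 0.06 (SD, n = 3, adjusted p = 0.00065 in limma). PSOLI04400 was also lower at 12 d (−0.19 ± 0.08, SD, n = 3, adjusted p = 0.002 in limma), with 0.53, 0.48 and 0.50 at 8 d and −0.22, −0.25 and −0.01 at 15 d. PSOLI03125 and PSOLI04896 were lower at 12 d as well, with means of −0.14 and −0.13 and adjusted p of 0.0088 and 0.038 in limma. The 12 d means of PSOLI00186 and PSOLI00389, −0.08 and −0.04, did not pass the test (adjusted p = 0.17 and 0.44 in limma).

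At 15 d, 4 members up at 8 d had all 3 arrays below 0, against 3.26% of all probes with 8 d and 15 d arrays of opposite sign. They were PSOLI04896, with −0.19, −0.21 and −0.09 at 15 d, PSOLI04400, PSOLI00389, with −0.07, −0.15 and −0.24, and PSOLI04208. No member down at 8 d had a mean above 0 at 12 d or 15 d.

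The 24 members up at 8 d that were still higher in aged seeds at 12 d had 12 d means from 0.09 to 1.04, with a median of 0.27 and adjusted p of at most 0.042 in limma. The 9 that did not pass the test had 12 d means from −0.08 to 0.11 and adjusted p from 0.12 to 0.84. A p above the threshold does not show that aged and non-aged seeds were alike. Among the members without a name, 2 kept a fairly large ratio at both later times, and are named here after their values were seen: PSOLI03868, with means of 0.92, 0.57 and 0.61 at 8, 12 and 15 d, and PSOLI01925, with 0.90, 0.59 and 0.51.

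The thresholds cut through a continuous range. The smallest drops inside were 0.25 for elongation factor 1-alpha and 0.26 for PSOLI00644 and PSOLI02512, and the largest outside were 0.247, 0.243 and 0.243. At 8 d, the smallest mean inside was 0.503 in size and the largest outside was 0.467. Of the 52 members, 15 had a drop under 0.3 and 12 had a mean under 0.6 in size at 8 d. When each replicate was left out in turn, 38 members met both thresholds every time and 14 did not at least once.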

How the data were processed

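The deposited values were log2 ratios of aged over non-aged seeds, 1 per probe and array, for 5246 probes (26 of them with a PCPS identifier) on 9 arrays, in steps of 0.01 and with 0 missing values. The authors had subtracted background, normalized within arrays by print-tip loess and scaled between arrays with limma. The spread of the deposited ratios was equal within 8 d and within 12 d, but it differed between the ageing times, as given above. Each probe had 3 spots per array. Spot intensities were not used, so that precision is limited by the number of arrays.

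All arrays were fitted in limma 3.58.1 (R 4.3.3) with 1 mean per ageing time, 6 residual degrees of freedom and a prior of 9.165 degrees of freedom, and two-sided p-values were adjusted by Benjamini and Hochberg over all probes. The script was tested on simulated data. Descriptive values were computed with pandas 2.3.3 and numpy 2.4.6.

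Members and lists were chosen with earlier results of these data known. Named were all members with a product name and, among the others, the 2 probes up and the 2 down at 8 d with the largest drop, where PSOLI01852 tied with PSOLI00392. Further probes are marked as chosen after their values were seen. Alternatives were the 12 d arrays alone, centring, scaling, a dye term, a replicate block, leaving out each replicate, and other thresholds.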

Additional observations from a re-analysis of the deposited data

Results flagged for a closer look

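In 6 members the 3 arrays of 8 d were all above 0 and the 3 arrays of 12 d all below it, and in 4 members the same held between 8 d and 15 d. The difference between ageing times was not tested, because the 8 d and 15 d arrays served to choose the members. PSOLI04896, PSOLI00389 and PSOLI04400 belong to both groups. The 12 d means of the 6 lay between −0.21 and −0.04, and 4 of them passed the limma test at 12 d. With 3 arrays per ageing time, no single array was examined as an outlier.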

How the results depend on the processing

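The number of probes meeting the thresholds was 52 as reported. With arrays scaled to the same median absolute deviation, which narrows the wider 15 d ratios relative to those of 8 d, it was 115. All 52 were among these 115. It was 54 with arrays centred on their median, 52 to 62 without 1 replicate, 65 and 40 with 0.4 and 0.6 in place of 0.5 at 8 d, and 67 and 37 with a drop of 0.2 and 0.3. The count of members past the test at 12 d in the direction of 8 d was 39 as reported, 36 to 40 without 1 replicate and 38 or 39 under the other fits. The split was 21 to 25 up and 15 down; splitting this count by direction was chosen after seeing the data. Requiring a log2 ratio of 0.5 in place of 1 gave 16 members at 12 d in place of 4, and 3 or 4 were found without 1 replicate. The 7 members with a product name and the probes PSOLI02456, PSOLI05042, PSOLI00213 and PSOLI00392 kept their direction at 12 d. They also stayed past the test in all 88 combinations of probe and alternative. Patellin-3 fell under 1 in size at 12 d without replicate 2 (−0.965) and without replicate 3 (−0.99). Replicate numbers did not pair the arrays: deviations of same-numbered arrays correlated across probes with r between −0.012 and 0.056. With the replicate block, 38 members passed the test at 12 d, 23 of them up and 15 down. The number of arrays, 3 per time, limits all of these counts.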
